A study of Homo sapiens with 6 samples.

Results

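The genes described here are 10 that encode the main proteins of the basement membrane: the collagen IV chains COL4A1, COL4A2, COL4A5 and COL4A6, the laminin chains LAMA1, LAMB1 and LAMC1, the nidogens NID1 and NID2, and perlecan, HSPG2. The list was chosen with earlier results of these data known. Its genes were found by name, and each matched 1 row among the 58735 genes of the expression table. All 10 averaged 1 FPKM or more (fragments per kilobase of gene, scaled to library depth) and were among the 12833 genes tested. RNA was sequenced from HEK293 cells, a human embryonic kidney line, carrying stably expressed tensin 2 in which a tyrosine was replaced by glutamate (Y483E, 3 libraries) or by phenylalanine (Y483F, 3 libraries). Glutamate is used to resemble a phosphorylated tyrosine, and phenylalanine cannot be phosphorylated. Untransfected cells and cells with unchanged tensin 2 were not analysed here, so every comparison is between the 2 mutant lines. The sources used here give neither the promoter of the construct nor the number of clones per line, and an effect of the mutation and a difference between clones cannot be told apart. In bulk RNA, fewer cells expressing a gene and less RNA per cell cannot be told apart either.

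A basement membrane is a thin sheet of extracellular matrix on which epithelial cells rest. Laminin heterotrimers, each of an alpha, a beta and a gamma chain, polymerise on the cell surface and bind integrins and dystroglycan. Collagen IV trimers form a covalent network that gives the sheet its strength, and nidogens and perlecan connect the laminin and collagen networks. In kidney, this sheet underlies the tubules and forms the filter of the glomerulus. Integrins that bind the matrix are linked to actin through focal adhesions, where tensins are found.

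Reads recovered from the deposited values summed to between 17919298 and 23284592 per library in Y483E and between 17204498 and 20274593 in Y483F. TNS2, the gene of the expressed protein, had 0.753, 1.04 and 1.05 FPKM in Y483E replicates 1 to 3 and 1.07, 1.16 and 1.16 FPKM in Y483F replicates 1 to 3, with no separation of construct and endogenous reads. Of genes often found in HEK293, the neurofilament gene NEFL was at 45.6 ± 5.65 FPKM in Y483E and 39.6 ± 1.51 FPKM in Y483F (SD, n = 3 each), while the kidney lineage gene PAX8 was at most at 0.015 FPKM in any library. Summed markers of endothelium lay between 0.0561 and 0.0818 FPKM in Y483E and between 0.0497 and 0.0998 FPKM in Y483F. Those of fibroblasts lay between 0.768 and 0.880 FPKM in Y483E and between 0.774 and 0.904 FPKM in Y483F. Leukocyte markers summed to between 0.0528 and 0.113 FPKM in Y483E and between 0.0411 and 0.225 FPKM in Y483F. Podocyte markers were not near 0, at sums between 11.4 and 12.7 FPKM in Y483E and of 12.0 FPKM in Y483F. Most of this was PODXL, at 11.4 ± 0.534 FPKM in Y483E and 11.3 ± 0.148 FPKM in Y483F. Replicates 1, 2 and 3 of each line carry the library numbers 1, 4 and 5 in the labels, which do not say what the numbers stand for. Libraries differed in ways the lines do not explain: edgeR, a test on counts, called 7 of 15992 genes over all 6 libraries and 1000 of 16405 without Y483F replicate 1. The labels call the replicates biological without saying that they are separate cultures, and p-values reflect only how these libraries vary, which may be technical.

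Of the 10 genes, 9 had a higher mean log2 level in Y483E, against 52.8% of all tested genes, and none passed an adjusted p of 0.05 over all genes in limma. The median log2 fold change of the 10 was 0.12, beside 0.007 for all 12833 tested genes. COL4A5 and COL4A6 lay farthest from 0, with Y483E to Y483F ratios of mean FPKM of 1.25 and 1.2, and NID2, NID1, LAMC1 and LAMB1 followed at 1.17, 1.15, 1.1 and 1.09, with LAMA1 at 1.1. COL4A1, COL4A2 and HSPG2 lay closest to equal means, at ratios of 1.01, 0.980 and 1.01. The limma count of 0 of 10 at the adjusted threshold stands beside 0 of 12833 genes (0.00%), of which 1566 had an unadjusted p under 0.05.

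At an unadjusted p under 0.05, limma had 6 of the 10 genes higher in Y483E, COL4A5, COL4A6, LAMB1, LAMC1, NID1 and NID2, against 6.51% of all tested genes in that direction. None was lower at that p, against 5.70%. For COL4A5, COL4A6, LAMB1, LAMC1 and NID2, 5 of the 10, every Y483E library lay above every Y483F library, as for 9.72% of tested genes, and no member separated in the opposite direction, as 7.37% did. The difference was positive in all 3 same-numbered pairs for the same 6 of the 10 genes, against 20.6% of tested genes. For the 5 genes that separate the lines this follows under any pairing, so only NID1 is added by it. The numbers were not taken to pair the samples. Members that share a start region are not independent of each other, and COL4A5 and COL4A6 are such a pair. Because the list was chosen with earlier results of these data known, these counts describe the members and test nothing. The first count rests on all 6 libraries, and with 1 left out the share of all tested genes moved too. Leaving out replicate 1 of Y483E (8.87% of all genes) or of Y483F (10.9%) gave 5. It was 2 without Y483E replicate 2 (3.90%), 1 without Y483E replicate 3 (3.45%), 1 without Y483F replicate 2 (3.67%) and 0 without Y483F replicate 3 (4.08%). Quantile normalization gave 4, without LAMC1 and NID1, against 6.75%.

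**Figure D1:**
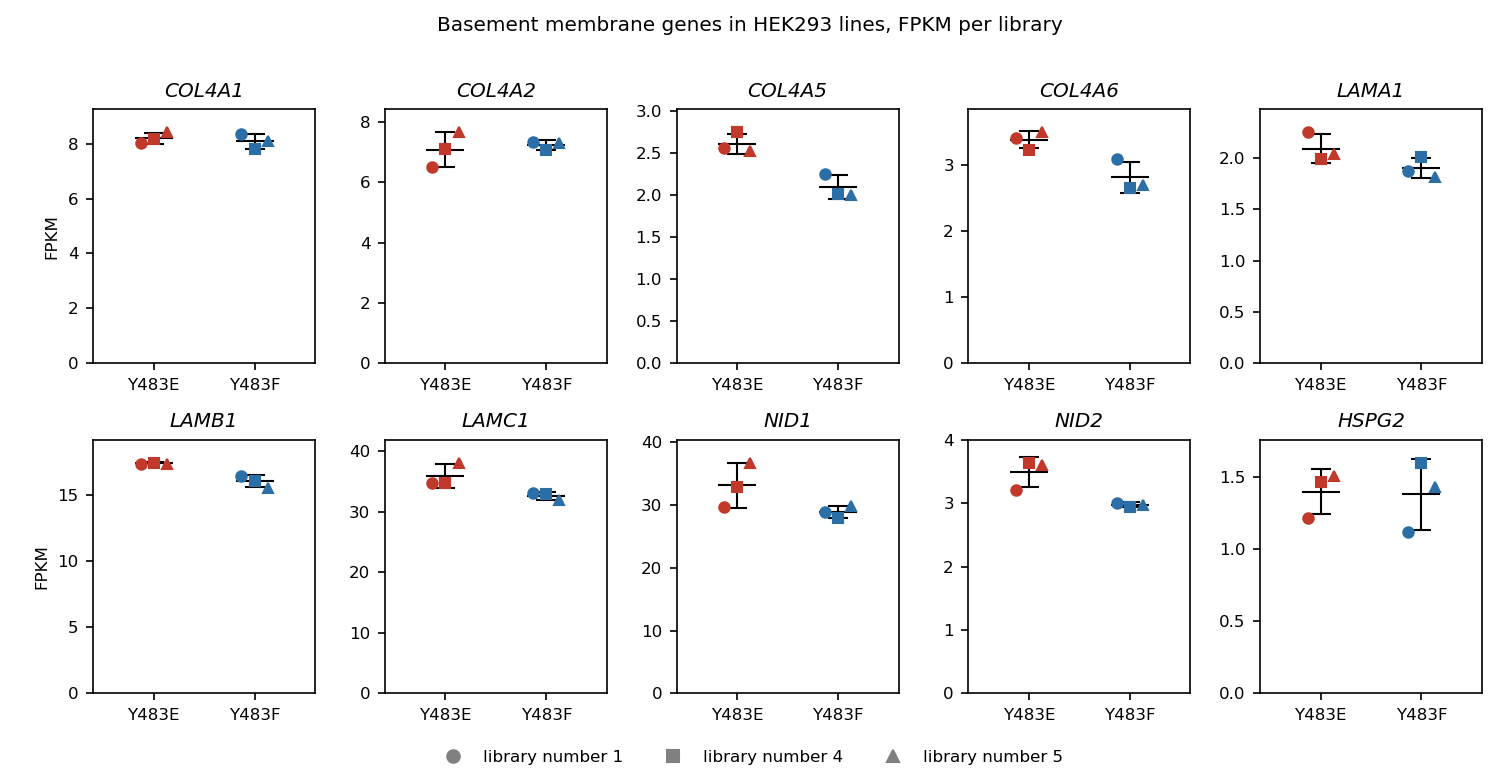
Level of each of the 10 genes in FPKM (vertical axes, each starting at 0) in the Y483E and Y483F libraries, 1 point per library with the shape giving the library number, and the mean with SD of 3 libraries in black. The Y483E points of COL4A5, COL4A6, LAMB1, LAMC1 and NID2 all lie above the Y483F points, and those of COL4A1, COL4A2, LAMA1, NID1 and HSPG2 overlap with them.

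The collagen IV genes lie in head-to-head pairs, in which neighbouring genes are transcribed away from a common start region. COL4A1 (ENSG00000187498) lies on chromosome 13 from 110148963 to 110307233 on the minus strand, and COL4A2 (ENSG00000134871) from 110305812 to 110513209 on the plus strand. COL4A6 (ENSG00000197565) lies on the X chromosome from 108155607 to 108439497 on the minus strand, and COL4A5 (ENSG00000188153) from 108439844 to 108697545 on the plus strand. These positions are those of the deposited table and equal the GENCODE 29 gene models on GRCh38. In these positions the spans of COL4A1 and COL4A2 overlap by 1422 bases, and 346 bases lie between those of COL4A5 and COL4A6. RefSeq (GRCh38.p14) places the starts of COL4A1 and COL4A2 127 bases apart and the nearest starts of COL4A5 and COL4A6 380 bases apart. The exons of COL4A1, COL4A5 and COL4A6 overlap those of no other gene in GENCODE 29, and those of COL4A2 share 95 bases with antisense genes, 0.492% of its length.

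The start regions are shown because the members of each pair were measured at like levels and share the stretch between their RefSeq starts. In the 126 bases between the RefSeq starts of COL4A1 and COL4A2, 80.2% are G or C, and GENCODE 29 has exons of either gene reaching into this stretch, to 110307233 and from 110307236. The sequence with the CCAAT box of COL4A1 and COL4A2 is chr13:110307166-110307195 and that with the GC box chr13:110307207-110307236. That upstream of COL4A5 is chrX:108439588-108439837, the 250 bases before the RefSeq start of COL4A5 and between the starts of that pair, with 51.2% G or C. All are on the plus strand of GRCh38.p14, from RefSeq, and capitals mark the CCAAT box and the GC box on either strand.
COL4A1 and COL4A2, CCAAT box: cgggccgagctccCCAATttgttggcgctg
COL4A1 and COL4A2, GC box: ccggcggtgcgcGGGCGGcgcctcaaaggg
COL4A5 upstream: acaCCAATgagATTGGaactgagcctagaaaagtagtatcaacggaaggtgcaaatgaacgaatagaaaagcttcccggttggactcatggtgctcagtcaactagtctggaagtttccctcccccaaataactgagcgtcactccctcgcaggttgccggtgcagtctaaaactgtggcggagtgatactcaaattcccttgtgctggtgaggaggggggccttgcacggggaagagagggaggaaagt

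Motifs were searched on both strands as CCAAT (or ATTGG) for the CCAAT box, GGGCGG (or CCGCCC) for the GC box and TATAAA (or TTTATA) for the TATA box, none of which overlapped another. The 126 bases between COL4A1 and COL4A2 held 1 CCAAT box and 1 GC box, and 21.1% and 34.6% of the last 126 bases before 35116 RefSeq starts held at least 1 of each. The 250 bases upstream of COL4A5 held 2 CCAAT boxes and no GC box, where 32.0% and 42.6% of windows of this length held them. Neither stretch had the TATA letters, which 5.87% of the shorter and 10.7% of the longer windows had. Of the other members with an entry, HSPG2, LAMC1, NID1, LAMB1 and NID2 had between 68.0% and 82.8% G or C in the 250 bases upstream and between 1 and 8 GC boxes. LAMA1 had no entry.

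COL4A5, the chain mutated in X-linked Alport syndrome, was measured at 2.56, 2.75 and 2.53 FPKM in Y483E replicates 1 to 3, against 2.26, 2.02 and 2.00 FPKM in Y483F replicates 1 to 3. All 3 Y483E libraries were above the highest Y483F library, which was replicate 1. Its log2 fold change in limma was 0.22 ± 0.069 (SE), with a 95% interval of 0.06 to 0.39, and missed the threshold (adjusted p 0.315). The values rest on 544, 761 and 553 reads in Y483E and 460, 431 and 484 reads in Y483F, and on these reads, without a pseudocount, edgeR gave 0.31 ± 0.078 (adjusted p 0.175).

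COL4A6, which assembles with the COL4A5 chain, had 3.42, 3.24 and 3.50 FPKM in Y483E, against 3.09, 2.66 and 2.71 FPKM in Y483F. The libraries of the lines did not overlap, and Y483F replicate 1 was again the highest of its line. The log2 fold change was 0.20 ± 0.0685 (SE, 95% interval 0.04 to 0.36), with a limma adjusted p of 0.346. On the reads, edgeR gave 0.26 ± 0.079 (adjusted p 0.220).

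COL4A1, a chain of the collagen IV network found in nearly all basement membranes, had 8.02, 8.18 and 8.41 FPKM in Y483E, against 8.36, 7.80 and 8.11 FPKM in Y483F. The lines overlapped, and the log2 fold change was 0.017 ± 0.0479, with a 95% interval of -0.10 to 0.13 (limma adjusted p 0.907). COL4A2, its partner in the same trimer, had 6.50, 7.10 and 7.65 FPKM in Y483E, against 7.35, 7.06 and 7.29 FPKM in Y483F. Y483E held both the lowest and the highest library of COL4A2, and the log2 fold change was -0.028 ± 0.0628, with a 95% interval of -0.18 to 0.12 (limma adjusted p 0.884). The upper ends of both intervals lie below the log2 fold changes of COL4A5 and COL4A6. They lie above the lower ends of the intervals of those genes, 0.06 and 0.04, so the intervals overlap. Comparing intervals does not test a difference between the pairs, and neither the COL4A1 nor the COL4A2 interval shows equal levels. The sign of COL4A2 turned to 0.024 without Y483E replicate 1, and that of COL4A1 to -0.006 without Y483F replicate 2.

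Within a library, the genes of a pair kept close ratios per length. The COL4A6 to COL4A5 ratio was 1.33, 1.18 and 1.38 in Y483E and 1.36, 1.32 and 1.35 in Y483F. The COL4A2 to COL4A1 ratio was 0.811, 0.868 and 0.909 in Y483E and 0.878, 0.904 and 0.899 in Y483F. Neither ratio separated the lines, at two-sided exact permutation p of 0.8 and 0.5 and adjusted p of 1.0 over the 5 ratios of single genes compared. Close ratios were not particular to these pairs, as members on different chromosomes kept them too. LAMB1 to LAMC1 lay between 0.455 and 0.50 over the libraries, and NID2 to NID1 between 0.0984 and 0.110.

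The ratio of the X-linked pair to the chromosome 13 pair did separate the lines. It was chosen after the values had been seen, in which COL4A5 and COL4A6 separated the lines and COL4A1 and COL4A2 did not. Its separation and p-value therefore describe those values again and are not a test. COL4A5 plus COL4A6 to COL4A1 plus COL4A2 was 0.412, 0.392 and 0.375 in Y483E, against 0.341, 0.315 and 0.306 in Y483F. Every Y483E library was above every Y483F library, with a log2 difference of 0.295 and an exact permutation p of 0.1, the smallest that 3 libraries against 3 allow. The difference was 0.28 between the number 1 libraries and 0.30 in the libraries numbered 4 and 5, and between 0.26 and 0.34 with any 1 library left out.

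**Figure D2:**
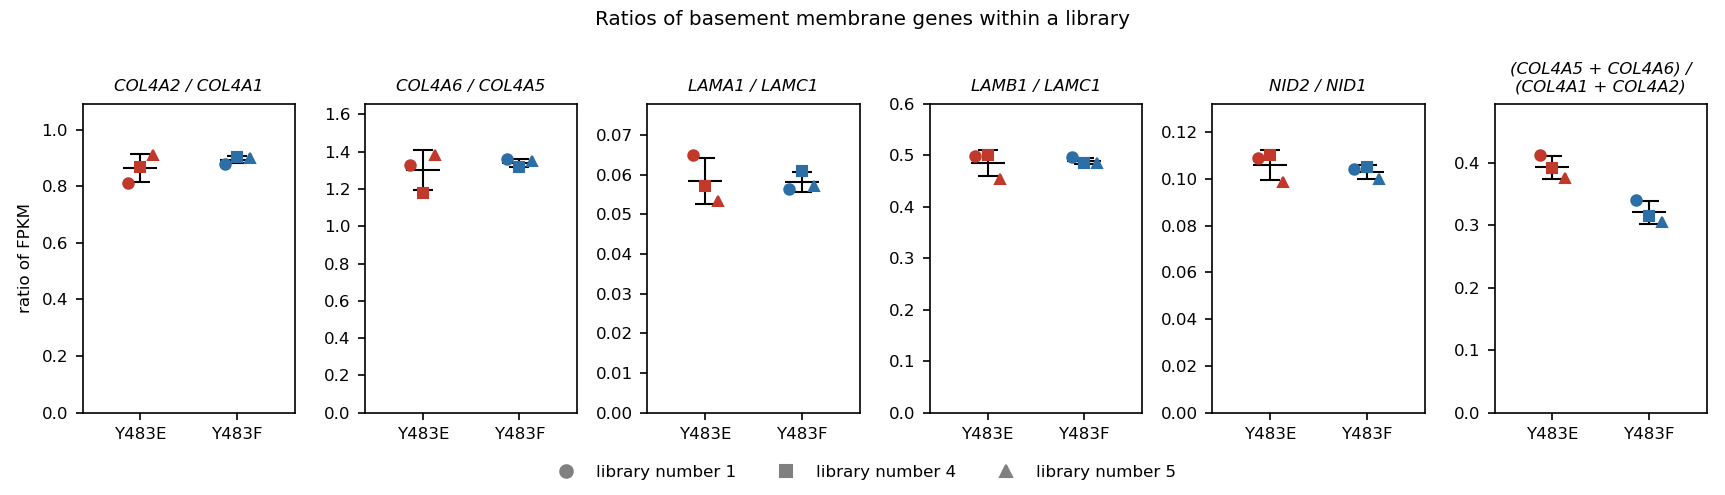
Ratios of FPKM between members within each library (vertical axes, each starting at 0), 1 point per library with the shape giving its number, and mean with SD of 3 libraries in black, Y483E left of Y483F. The ratio of COL4A5 plus COL4A6 to COL4A1 plus COL4A2 lies between 0.375 and 0.412 in Y483E and between 0.306 and 0.341 in Y483F, and in the other panels the lines overlap.

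The share of genes higher in Y483E differed among the chromosomes on which the members lie, and its part in the members' values was not tested. On chromosome 13, 30% of 233 tested genes were higher in Y483E, with a median log2 fold change of -0.049, and COL4A1 and COL4A2 lay above 75.1% and 57.9% of these genes. On the X chromosome 64.8% of 440 genes were higher, with a median of 0.032, and COL4A5 and COL4A6 lay above 92.7% and 90.2% of them. On chromosome 18, which carries LAMA1, 89.6% of 182 genes were higher with a median of 0.12, and LAMA1 lay above 35.7% of them. On chromosome 1 this share was 57.2% of 1307 genes, with a median of 0.016, and LAMC1, NID1 and HSPG2 lay above 87.6%, 93.3% and 48.0% of them. On chromosome 7 it was 59.7% of 643 genes, with a median of 0.023, and LAMB1 lay above 82.3% of them. On chromosome 14 it was 50% of 428 genes, and NID2 lay above 95.3% of them.

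LAMA1, LAMB1 and LAMC1 encode the alpha, beta and gamma chains of the laminin of early embryonic basement membranes. LAMC1 (ENSG00000135862, chromosome 1, 183023460 to 183145592, plus strand), the gamma chain shared by most laminins, was the most abundant of the 10 genes per length. It was at 34.7, 34.8 and 38.1 FPKM in Y483E, against 33.1, 33.0 and 31.9 FPKM in Y483F. The lines did not overlap, and Y483E replicate 3 was the highest library. Its log2 fold change was 0.13 ± 0.0488 (SE), with a limma adjusted p of 0.360.

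LAMB1 (ENSG00000091136, chromosome 7, 107923799 to 108003255, minus strand), the beta chain, had 17.3, 17.4 and 17.3 FPKM in Y483E, against 16.4, 16 and 15.5 FPKM in Y483F. The Y483E libraries lay close together, with an SD of 0.0544 against 0.448 in Y483F, and every one of them was above the Y483F libraries. The log2 fold change was 0.11 ± 0.0405, with a limma adjusted p of 0.354. Its exons share 291 bases with genes of the opposite strand, 3.57% of their length, and DLD, the most abundant of these, averaged 38.1 ± 1.72 FPKM in Y483E and 38.7 ± 3.81 FPKM in Y483F (SD, n = 3 each).

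LAMA1 (ENSG00000101680, chromosome 18, 6941744 to 7117814, minus strand), the alpha chain, was at 2.25, 1.99 and 2.04 FPKM in Y483E, against 1.87, 2.01 and 1.82 FPKM in Y483F. The lines overlapped through Y483E replicate 2 and Y483F replicate 2. The log2 fold change was 0.093 ± 0.0713, with a 95% interval of -0.07 to 0.26 (limma adjusted p 0.625). LAMA1 shares 1754 exon bases, 11.1% of its length, with opposite-strand genes, the larger of which was at 0 FPKM in every library. The difference was 0.18 between the number 1 libraries and 0.049 in the libraries numbered 4 and 5, the reverse order of LAMB1 and LAMC1.

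Per length, LAMA1 stood at 0.0649, 0.0571 and 0.0535 of LAMC1 in Y483E and at 0.0565, 0.0610 and 0.0571 of it in Y483F (exact permutation p 0.9). LAMB1 stood at 0.499, 0.50 and 0.455 of LAMC1 in Y483E and at 0.496, 0.486 and 0.486 in Y483F (exact permutation p 1.0). The alpha chain LAMA1 was thus far below its beta and gamma partners per length in both lines. Among other alpha chains, LAMA5 was at 7.42 ± 0.570 FPKM in Y483E and 8.22 ± 1.23 FPKM in Y483F, and LAMA4, named with its values known, at 4.94 ± 0.455 FPKM in Y483E and 4.26 ± 0.128 FPKM in Y483F. The beta chain LAMB2 was at 6.35 ± 0.337 FPKM in Y483E and 6.39 ± 0.442 FPKM in Y483F. None of these passed the limma threshold (adjusted p 0.662, 0.399 and 0.977).

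NID1 (ENSG00000116962, chromosome 1, 235975830 to 236065162, minus strand), which binds the laminin gamma chain and collagen IV, had 29.6, 32.9 and 36.7 FPKM in Y483E, against 28.9, 27.9 and 29.8 FPKM in Y483F. Y483E replicate 1 lay within the range of Y483F, and the other Y483E libraries lay above it. The Y483E libraries were spread more widely, with an SD of 3.54 FPKM against 0.976 in Y483F. The log2 fold change was 0.18 ± 0.0764, with a limma adjusted p of 0.400, and it was 0.033 between the number 1 libraries and 0.26 in those numbered 4 and 5.

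NID2 (ENSG00000087303, chromosome 14, 52004803 to 52069228, minus strand), the related nidogen, had 3.21, 3.64 and 3.61 FPKM in Y483E, against 3.01, 2.94 and 2.98 FPKM in Y483F. The lines did not overlap, and Y483E replicate 1 lay closest to Y483F. The NID2 log2 fold change was 0.17 ± 0.0634, with a limma adjusted p of 0.360. NID2 shares 1915 exon bases, 30% of its length, with RTRAF on the opposite strand, and no source used here says whether the counting used strand. RTRAF was at 13.4 ± 0.446 FPKM in Y483E and 13.4 ± 1.01 FPKM in Y483F, with a log2 fold change of -0.001. The NID2 to NID1 ratio averaged 0.106 ± 0.00646 in Y483E and 0.103 ± 0.00301 in Y483F (SD, n = 3 each, exact permutation p 0.6).

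HSPG2 (ENSG00000142798, chromosome 1, 21822245 to 21937297, minus strand), which encodes perlecan, a heparan sulfate proteoglycan, had 1.22, 1.47 and 1.51 FPKM in Y483E, against 1.12, 1.6 and 1.43 FPKM in Y483F. It was lowest in replicate 1 of both lines, and the other 4 libraries overlapped. The log2 fold change was 0.012 ± 0.104, with a 95% interval of -0.23 to 0.26, the widest of the 10 genes (limma adjusted p 0.972). Its sign turned without Y483E replicate 2, Y483E replicate 3 or Y483F replicate 1, at -0.009, -0.021 and -0.071. HSPG2 shares 2121 exon bases, 11.7% of its length, with LDLRAD2 on the opposite strand, which averaged 0 FPKM in Y483E and 0.00365 FPKM in Y483F.

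The order of the 10 genes per length was nearly the same in every library. LAMC1, NID1, LAMB1, COL4A1 and COL4A2 held places 1 to 5 in all 6 libraries, and COL4A5, LAMA1 and HSPG2 held places 8 to 10. NID2 and COL4A6 shared places 6 and 7: NID2 was above COL4A6 in 4 libraries, and COL4A6 was above NID2 in replicate 1 of both lines. Across libraries the ranges of LAMC1 (31.9 to 38.1 FPKM) and NID1 (27.9 to 36.7 FPKM) overlapped, as did those of NID2 and COL4A6, of COL4A6 and COL4A5, and of COL4A5 and LAMA1.

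The difference between the lines was larger in the libraries numbered 4 and 5 than between those numbered 1 for several members. Between the number 1 libraries the median of the 10 genes was 0.069, with 8 higher in Y483E, beside a median of -0.0043 for all genes. In the libraries numbered 4 and 5, limma gave a median of 0.15 beside 0.016 for all genes and called 0 of the 10, against 5.71% of all genes. In the same libraries edgeR called 6 of the 10 higher in Y483E, against 7.07% of 16308 genes in that direction, and none lower, against 7.98%. These were COL4A5 (log2 fold change 0.39, edgeR adjusted p 0.00425), NID1 (0.26, adjusted p 0.00214), COL4A6 (0.32, adjusted p 0.0130), LAMC1 (0.17, adjusted p 0.0192), LAMB1 (0.14, adjusted p 0.0293) and NID2 (0.29, adjusted p 0.0366), so the call depends on the tool. Whether the difference itself depends on the library number was not tested.

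**Figure D3:**
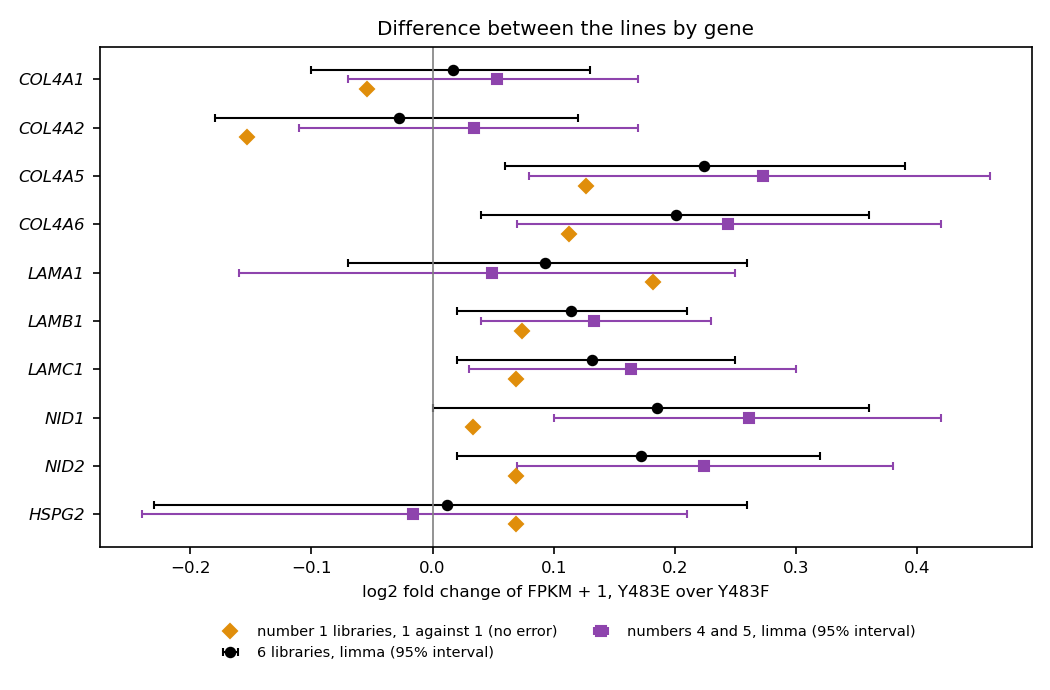
Log2 fold change of FPKM + 1, Y483E over Y483F (horizontal axis), for each of the 10 genes, from limma over all 6 libraries (black, 95% interval), limma over the libraries numbered 4 and 5 (purple, 95% interval), and 1 library against 1 between those numbered 1 (orange, no error). COL4A5 and COL4A6 lie at 0.22 and 0.20 over all libraries and COL4A1 and COL4A2 at 0.017 and -0.028, and NID1 lies at 0.033 between the number 1 libraries.

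On the reads of all 6 libraries edgeR called 0 of the 10 genes, against 0.0438% of 15992 genes, and had 6 of them higher at an unadjusted p under 0.05, against 5.78%. That count was 6 without Y483E replicate 1 (8.06% of all genes) or Y483F replicate 1 (9.86%), and 4 without Y483E replicate 2 (3.25%). Leaving out Y483E replicate 3 gave 2 (3.14%), and leaving out Y483F replicate 2 (3.95%) or Y483F replicate 3 (3.84%) gave 3. DESeq2 called 0 of the 10, against 0.458% of 31211 genes. Limma with array weights, which gave Y483F replicate 1 the lowest weight of 0.288 and Y483F replicate 3 the highest of 4.6, called COL4A5, COL4A6, LAMB1, LAMC1 and NID2 higher, 5 of 10 against 7.32% of tested genes. Without Y483F replicate 1, edgeR called COL4A5 and COL4A6 higher, 2 of 10 against 1.82% of genes (adjusted p 0.0157 and 0.0248). The authors' deposited table of 1652 genes at an unadjusted p of up to 0.04999 lists 6 of the 10, all higher in Y483E, as are 770 of its genes. In DESeq2 on the recovered reads, 1652 of 31211 genes (5.29%) had an unadjusted p under 0.05, and 2.47% were higher in Y483E at that p. The 31211 genes are all those with any read, while the members averaged 1 FPKM or more. Among the 12833 genes at that level, limma had 6.51% higher at an unadjusted p under 0.05. The smallest adjusted p among the 6 members in the authors' deposited table is 0.0955, for COL4A5, at a log2 fold change of 0.32. That table rests on the same reads and is not separate evidence.

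Genes that work with these proteins were described by 6 lists, by counts and medians. Of all tested genes 52.8% were higher in Y483E, with a median log2 fold change of 0.007. At an unadjusted p under 0.05 limma had 6.51% higher and 5.70% lower. Of 6 tested other collagen IV and laminin chains 3 lay higher and 3 lower in Y483E (median 0.030), with 1 higher and 0 lower at that p. Among 13 other basement membrane and linker proteins, 8 were higher and 5 lower in Y483E (median 0.056), with 0 at that p in either direction. Their most abundant members were agrin, AGRN, at 21.9 ± 0.938 FPKM in Y483E and 23.5 ± 2.37 FPKM in Y483F, and netrin 1, NTN1, at 15.3 ± 0.601 FPKM in Y483E and 14.6 ± 0.348 FPKM in Y483F. None of the members of any list passed the limma or edgeR threshold over all 6 libraries, where limma called 0 of 12833 genes.

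Of 26 genes of collagen folding, modification and export, 20 were higher and 6 lower (median 0.060), against 52.8% of all tested genes higher. At an unadjusted p under 0.05 limma had 1 in each direction, against 6.51% of all tested genes higher and 5.70% lower. P4HB, a subunit of the collagen prolyl hydroxylase, was at 92.1 ± 1.88 FPKM in Y483E and 89.2 ± 3.22 FPKM in Y483F, and PPIB, a prolyl isomerase, at 52.9 ± 1.85 FPKM in Y483E and 50 ± 2.89 FPKM in Y483F. Of 14 receptors of basement membrane proteins 11 lay higher in Y483E and 3 lower (median 0.040), with 1 higher and 0 lower at that p. ITGB1, the beta subunit of many laminin and collagen receptors, was at 40.6 ± 1.72 FPKM in Y483E and 38.8 ± 3.04 FPKM in Y483F, and CD151, a tetraspanin bound to laminin-binding integrins, at 29.4 ± 0.574 FPKM in Y483E and 26.2 ± 0.734 FPKM in Y483F. The log2 fold change of CD151 was 0.16 ± 0.0406 (limma adjusted p 0.269).

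Of 11 proteases and inhibitors 7 lay higher in Y483E and 4 lower (median 0.12), like that of the 10 genes. At an unadjusted p under 0.05 limma had 3 of them higher and 0 lower, against 6.51% and 5.70% of all tested genes. ADAMTS1, a metalloprotease, was at 42.0 ± 1.01 FPKM in Y483E and 42.4 ± 1.74 FPKM in Y483F, and TIMP1, a metalloprotease inhibitor, at 38.4 ± 4.66 FPKM in Y483E and 37.7 ± 2.77 FPKM in Y483F. Of 6 tested genes of fibrillar and other interstitial matrix 3 lay higher and 3 lower (median 0.034), with 1 higher and 0 lower at that p. COL6A1 was at 20.8 ± 0.363 FPKM in Y483E and 22.9 ± 2.61 FPKM in Y483F, and FBN2, a fibrillin, at 11.4 ± 0.548 FPKM in Y483E and 10.6 ± 1.31 FPKM in Y483F. The fibrillar collagen genes COL1A1, COL1A2 and COL3A1, named with their values known, had means of at most 0.678 FPKM in either line and were not tested.

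**Figure D4:**
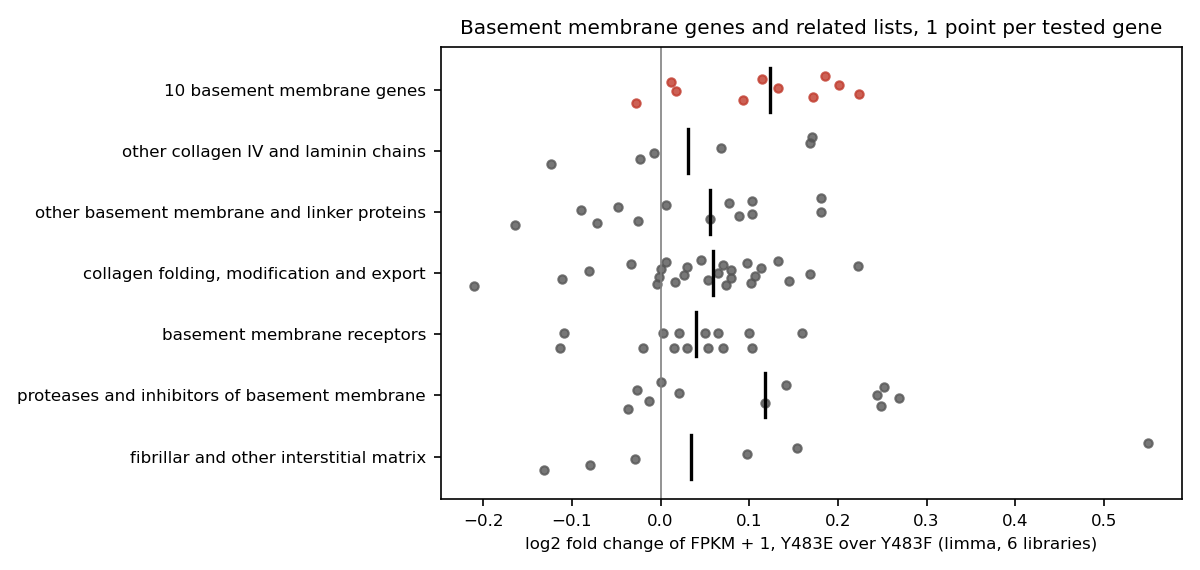
Log2 fold change of FPKM + 1, Y483E over Y483F, from limma over all 6 libraries (horizontal axis), 1 point per tested gene, for the 10 basement membrane genes (red) and the 6 lists (grey), with the median of each as a black line. The median is 0.12 for the 10 genes and for proteases and inhibitors, and between 0.030 and 0.060 for the other 5 lists.

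By profile over the 6 libraries, the genes most like the COL4A1 and COL4A2 pair among 7468 other genes averaging 5 FPKM or more were HDAC2, SLC19A2, CLDND1, GMPS and PSMB2. Their root mean square distance to the centred mean log2 profile of the pair was between 0.0114 and 0.0144, beside 0.0835 for the median gene. The profile of the pair itself had a root mean square size of 0.0436, so the pair varied little. A gene with no variation would lie at that distance, and the named genes lay closer. They are the nearest picked from 7468 genes over only 6 libraries, and what their likeness means was not tested.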

How the data were processed

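The labels name RNeasy extraction and selection of messenger RNA on poly-T beads, and describe directional as well as non-directional libraries. The submitters' processing notes name featureCounts 1.5.0-p3, HISAT2 2.0.5, DESeq, DESeq2 and StringTie 1.3.3b, with no role or order. No source used here names the genome build. The authors deposited FPKM values of all genes and, for 1652 genes, raw counts, the signal of counts divided by size factors, log2 fold changes and p-values. FPKM times gene length and library total gave whole reads, within 0.01, for 100% of values above 0. Median-of-ratios factors of the FPKM columns were all 1, so the size factors were already in the deposited FPKM.

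The test was limma 3.58.1 (eBayes with trend) on log2(FPKM + 1), run two-sided on the genes averaging 1 FPKM or more, with Benjamini-Hochberg adjustment over all 12833 genes. A fold change on this scale understates that of low genes. edgeR 4.0.16 and DESeq2 1.42.0 ran on the recovered reads, after a check on simulated data. A count of 0 allows up to 3 reads, which covers counting error only. Ratios within libraries got exact permutation tests, two-sided. Alternatives were pseudocounts of 0.1 and 0.5, filters, scalings, array weights, a replicate block, a batch term (number 1 against 4 and 5), the libraries numbered 4 and 5, and leaving out each library. The edgeR fits that leave out a library or hold the batch term, and FPKM rescaled to each library's own reads, and the ratio of summed collagen IV pairs, were chosen after seeing the data.

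The members and lists were chosen with earlier results of these data known. Named genes were the members, TNS2, the 2 list members with the highest mean FPKM, up to 4 past the threshold, of which there were 0, and the 5 nearest in profile. Others are said to be named after their values were seen, or mark a cell type or an overlap.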

Additional observations from a re-analysis of the deposited data

How the results depend on the processing

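The count of genes past the threshold, 0 in limma, was 1888 with array weights, 733 in the libraries numbered 4 and 5, and 0 with the other limma settings run. On the reads it was 7 in edgeR, 14 without TMM, 155 with the batch term, 143 in DESeq2, 2454 in edgeR on the libraries numbered 4 and 5, and between 1 and 1000 in edgeR with 1 library left out (174 without Y483E replicate 1, 1000 without Y483F replicate 1, 3 without Y483F replicate 2). The count of the 10 members, 0 in limma, was 5 with array weights, 6 in edgeR on the libraries numbered 4 and 5, and between 0 and 2 in edgeR with 1 library left out. The median of the members was between 0.105 and 0.158 with 1 library left out. COL4A5, COL4A6, LAMA1, LAMB1, LAMC1, NID1 and NID2 stayed higher in Y483E under every alternative run. With 1 library left out, COL4A1 lay between -0.006 and 0.039 in limma and -0.005 and 0.040 in edgeR (-0.0003 without Y483E replicate 3). COL4A2 lay between -0.078 and 0.024 in limma and -0.089 and 0.024 in edgeR, and HSPG2 between -0.071 and 0.078 in limma and -0.117 and 0.131 in edgeR (-0.042 without Y483E replicate 3). In the libraries numbered 4 and 5, COL4A2 was at 0.034 in limma and edgeR, and HSPG2 at -0.016 in limma and -0.031 in edgeR. With 1 library left out the log2 ratio differences were between -0.101 and 0.015 for COL4A6 to COL4A5, -0.073 and 0.066 for LAMA1 to LAMC1, and -0.039 and 0.030 for LAMB1 to LAMC1. For LAMA1 to LAMC1 it was -0.094 in the libraries numbered 4 and 5, against 0.004 over all. The cause of these shifts was not tested. The replicate block gave 0 genes in limma and 6 in edgeR, 0 members in either, and a members' median of 0.123 and 0.129. Deviations of same-numbered libraries correlated at 0.0562, 0.139 and -0.0949, and 2 of 6 libraries correlated best with their own number, so the numbers were not taken to pair the samples. Scaling by median of ratios changed nothing, as its factors were all 1. Depth limits HSPG2 and NID2 most, with 346 to 619 and 330 to 542 reads per library.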

Other observations

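Among the proteases that act on basement membranes and their inhibitors, edgeR on libraries 4 and 5 called 5 of 16 genes higher in Y483E, against 7.07% of 16308 genes, and none lower, against 7.98%. All 5 are named here with their values known. These were the metalloprotease inhibitors TIMP2 and TIMP3, at log2 fold changes of 0.46 and 0.31, the metalloprotease MMP15 at 0.36, the plasminogen activator PLAT at 0.48 and the cathepsin CTSB at 0.21. On log2(FPKM + 1) between the number 1 libraries, the differences were 0.14 for TIMP3, 0.17 for MMP15 and 0.016 for TIMP2. PLAT and CTSB were lower in Y483E there, at -0.034 and -0.052. Over all 6 libraries none of the 5 was called by edgeR, with adjusted p between 0.175 and 0.452. TIMP3 was at 16.1 ± 0.988 FPKM in Y483E and 13.4 ± 0.581 FPKM in Y483F (SD, n = 3 each). Tenascin C, TNC, a matrix glycoprotein, was at 2.66 ± 1.02 FPKM in Y483E and 1.43 ± 0.156 FPKM in Y483F, with a log2 fold change of 1.09 in edgeR on the libraries numbered 4 and 5 and 0.15 on log2(FPKM + 1) between those numbered 1. The laminin alpha chains LAMA4 and LAMA5 had edgeR log2 fold changes of 0.29 and -0.23 in the libraries numbered 4 and 5 (adjusted p 0.00390 and 0.00602), and of 0.026 each on log2(FPKM + 1) between the number 1 libraries.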
